A study of Mus musculus with 64 samples.

Results

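The genes described are the translation initiation factor genes of mouse natural killer (NK) cells, measured with and without stimulation and with and without prostaglandin E2 (PGE2). Members are the rows of the deposited count table whose symbol begins with Eif followed by a digit from 1 to 6, without pseudogene symbols, without Eif2s3x, Eif2s3y and Eif1ax, and with a mean of at least 5 CPM (counts divided by the library total and scaled to a common size) over the 64 libraries. Of 67 matching symbols, 50 were members, out of 36273 rows in the table. Of the other 17, 10 were pseudogenes, 3 were left out by name and 4 (Eif4a3l1, Eif4a3l2, Eif4ebp3 and Eif4e1b) had means of at most 0.0392 CPM. The lowest member was Eif5a2 at 6.25 CPM and the highest Eif5a at 740.2 CPM (means over all libraries). All 50 members passed the filter on low counts.

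Translation initiation places a ribosome with its initiator tRNA on the start codon of an mRNA. In outline, eIF2 brings the tRNA as a complex with GTP and is recharged by eIF2B, eIF3 organises the small ribosomal subunit, and eIF1, eIF1A, eIF5 and eIF5B govern scanning, start-codon choice and subunit joining. The mRNA is brought in through eIF4F, which is made of the cap-binding protein eIF4E, the helicase eIF4A and the scaffold eIF4G, and eIF4E-binding proteins hold eIF4E back until mTORC1 phosphorylates them. Kinases of eIF2 slow initiation under stress. Activated lymphocytes are known to raise protein synthesis as they enlarge and make effector proteins.

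NK cells from mouse spleen were grown for 5 days with low doses of IL-2 and of IL-15 complexed with its alpha receptor. Cells came from C57BL/6J mice (wild type, WT), from Ptger2-/- Ptger4 fl/fl mice (called EP2KO, lacking the PGE2 receptor EP2) and from mice that add a GzmbCre to those alleles (called DKO, lacking EP2 and EP4). Both receptors couple PGE2 to cyclic AMP. EP2KO cells thus carry the floxed Ptger4 without Cre, and the loss of Ptger4 in DKO cells depends on a Cre driven by Gzmb. Cells were left untreated, given PGE2 at 100 ng/ml, or given conditioned medium (CM) of control BRAFV600E tumour cells that make PGE2, for 5 h in all. In the stimulated arm the treatment ran for 1 h alone, and an antibody to the activating receptor NK1.1 was present for the last 4 h. The 18 groups held 4 libraries each in WT and EP2KO and 3 each in DKO, except that unstimulated WT cells with PGE2 had 2. No age is given, and the labels do not say what separates 1 replicate from another, so p-values rest on differences between libraries that may be technical.

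Libraries held 753973 to 1693750 counts (median 1256163). All 12 NK cell markers averaged at least 5 CPM, and they summed to 0.687% to 1.31% of counts. The 9 T cell, 7 B cell, 9 macrophage and dendritic cell and 7 neutrophil markers summed to at most 0.00979%, 0.0125%, 0.023% and 0.0853% of any library. Neutrophil markers followed replicate numbers. In every group they were highest in replicate 2 for WT (0.0196% to 0.0403%), replicate 1 for EP2KO and replicate 2 for DKO. The calls below come from a fit that does not pair libraries by number. A fit that does, the replicate block, was run as an alternative. DKO libraries differed from the others in sex markers as well as in Cre: Xist ran from 28.3 to 66.3 CPM in DKO and from 476 to 970 CPM in WT, and the Y-linked Ddx3y from 52.3 to 177 CPM in DKO and from 0 to 5.92 CPM in WT. Genotype and sex can therefore not be told apart in a contrast with DKO. Counts at Ptger2 (medians of 7.21, 6.34 and 5.95 CPM by genotype, from WT to EP2KO to DKO) and Ptger4 (25.1, 28.4 and 55.3 CPM) were not lower by a clear step in the knockouts. Ptger4 had its highest median in DKO. Whether the 3′ tags lie outside the deleted parts was not examined, so these counts do not check a deletion. Within the stimulated untreated WT group, replicates 1 and 2 stood apart from replicates 3 and 4 in several members named below.

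Promoter sequences are shown for the eIF4F genes that rose and hold an E-box near their start, beside the eIF3 gene with an E-box that fell. They were picked for the motif: Eif4a2 and Eif4g3 also rose, and their promoters hold none. RefSeq promoters (GRCm38.p6, 250 bases before to 50 after the start) matched 40 of the 50 members, and the other 10 were Eif1a, Eif2b3, Eif3e, Eif3h, Eif3i, Eif3j2, Eif4e3, Eif4ebp1, Eif4g2 and Eif6. The E-box CACGTG, the letters read by Myc and its relatives, was searched on both strands, on which it reads the same. A gene counted once if any of its windows held the letters, so a gene with several starts had more chances, which was not adjusted for. The E-box lay in 10 of the 40 members (25%) and in 8.1% of all 27025 genes. Those genes were not limited to ones expressed in these cells, as the members were, which holds for the other elements below too. Windows upstream of the start are given 5′ to 3′ on the gene's strand, with the E-box in capitals.
Eif4e, chr3:138527177-138527236, plus strand, E-box from position -64: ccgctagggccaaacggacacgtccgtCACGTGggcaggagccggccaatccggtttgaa
Eif4a1, chr11:69672580-69672639, minus strand, E-box from position -189: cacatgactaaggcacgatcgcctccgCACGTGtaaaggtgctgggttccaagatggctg
Eif4g1, chr16:20672646-20672705, plus strand, E-box from position -54: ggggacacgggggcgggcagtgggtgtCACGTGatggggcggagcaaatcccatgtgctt
Eif3f, chr7:108934320-108934379, plus strand, E-box from position -68: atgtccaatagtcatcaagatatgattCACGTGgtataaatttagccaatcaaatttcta
By the members' behaviour on stimulation of WT cells, the E-box was in 4 of 21 members that rose, 1 of 4 that fell and 5 of 15 that were not called. The full cyclic AMP response element TGACGTCA was in 0 of the 40 members and in 2.0% of all genes. Its core TGACGT, which the full element contains, was in 8 of the 40 members and in 8.4% of all genes, both strands searched. It lay in 6 of 21 members that rose, 1 of 4 that fell and 1 of 15 that were not called. A match describes letters and not binding.

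**Figure D1:**
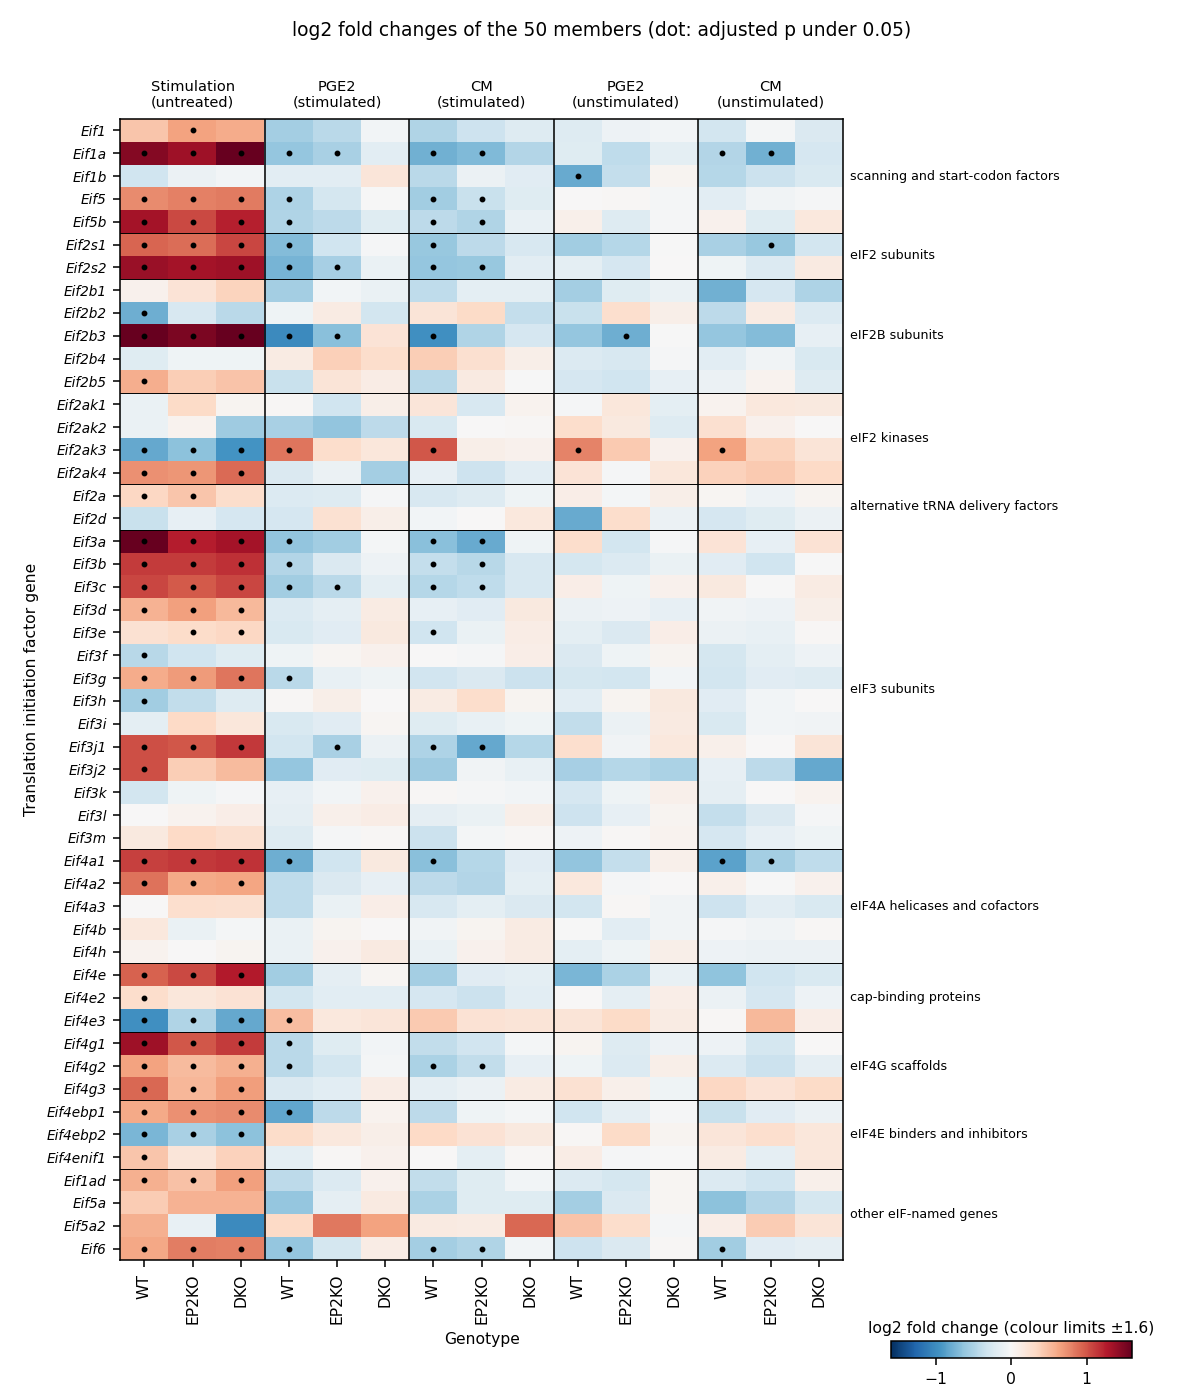
log2 fold changes (colour) of the 50 members, grouped by role, for 15 comparisons in WT, EP2KO and DKO cells; black dots mark adjusted p under 0.05. Stimulation has 27 higher and 6 lower calls in WT, PGE2 and CM in stimulated WT cells 2 and 1 higher and 15 and 14 lower, and no DKO column of a treatment has a dot.

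The comparison of stimulated with unstimulated untreated cells asks what the activating receptor does to these genes. In WT cells, stimulation raised 27 of the 50 members and lowered 6, and 17 were not called. The median log2 fold change of the members was 0.502, against 0.009 over all 10723 genes tested. A call is an adjusted p under 0.05 in edgeR's quasi-likelihood test with Benjamini-Hochberg adjustment over all genes tested, and 42% of all genes were called (23% higher and 19.1% lower). The summed share of counts in the members was 0.974% ± 0.0361 (SD, n = 4) without and 1.312% ± 0.094 (SD, n = 4) with stimulation. Markers of other cells moved with stimulation: over WT libraries B cell markers summed to 0.00682% to 0.00945% of counts without and 0.00325% to 0.00593% with it, and T cell markers to 0.00525% to 0.00692% and 0.00379% to 0.00463%. Of the 7 B cell markers 5 averaged under 1 CPM, as did 2 of the 9 T cell markers, and none was at 0 in every library. NK cell markers summed to 1.08% to 1.24% and 0.75% to 1.26%. The part of these shifts in the result was not tested. In bulk samples, fewer cells expressing a gene and less RNA per cell cannot be told apart.

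**Figure D2:**
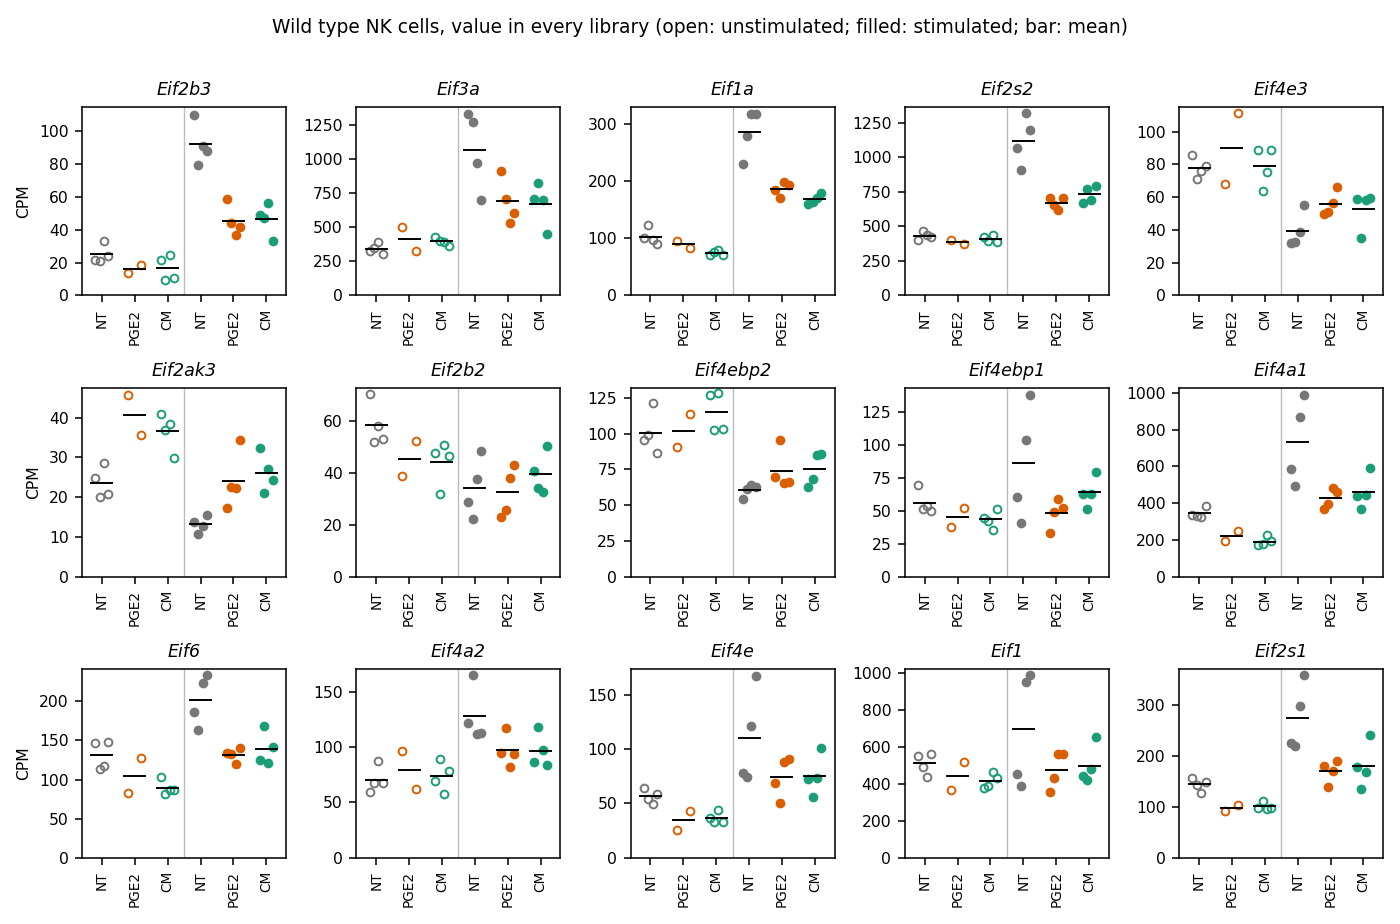
CPM of 15 members in every WT library, by treatment (NT, untreated; PGE2; CM) and stimulation, with bars at group means. The untreated stimulated libraries of Eif2b3, Eif3a, Eif1a and Eif2s2 all lie above the unstimulated ones, and those of Eif4e3, Eif2ak3 and Eif4ebp2 all lie below them.

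Among scanning and start-codon factors, Eif1a, Eif5 and Eif5b rose, and Eif1 and Eif1b were not called. Eif1a, which promotes scanning and start-codon recognition, stood at 101, 123, 97.2 and 90.6 CPM in the 4 unstimulated WT libraries and at 231, 279, 318 and 318 CPM in the 4 stimulated ones (log2 fold change 1.47 ± 0.13 (SE), adjusted p = 1.24e-14). The groups did not overlap. Eif5b, the GTPase of subunit joining, had log2 fold change 1.33 ± 0.15 (SE), adjusted p = 7.85e-11, and Eif5, the GTPase activator of eIF2, had log2 fold change 0.76 ± 0.11 (SE), adjusted p = 4.65e-08. Eif1, the guardian of start-codon fidelity, stood at 551, 491, 438 and 557 CPM without and at 449, 385, 948 and 989.8 CPM with stimulation (log2 fold change 0.44 ± 0.21 (SE), adjusted p = 0.0792). Its stimulated replicates 3 and 4 lay above every unstimulated library and replicate 2 below every one. Eif1b was at -0.31 ± 0.18 (log2 fold change ± SE).

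Both eIF2 subunits in the set rose. Eif2s2, the beta subunit (chr2:154871410-154892935, minus strand, GRCm38), stood at 399, 468, 435 and 419.5 CPM in unstimulated and 1064, 904, 1319 and 1195 CPM in stimulated WT libraries (log2 fold change 1.38 ± 0.11 (SE), adjusted p = 6.75e-16). Eif2s1, the alpha subunit that the stress kinases phosphorylate, stood at 156, 144, 127 and 149 CPM and 225, 219, 297 and 358 CPM (log2 fold change 0.93 ± 0.17 (SE), adjusted p = 1.01e-05). For both genes each stimulated library lay above each unstimulated one. Eif2s2 overlaps the gene a (agouti) on the other strand, and use of strand in counting is not given in the sources used here. Other members also overlap a gene on the other strand, among them Eif4a2, Eif5b, Eif3j1, Eif6 and Eif2ak3, and the same doubt applies to their values.

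The eIF2B subunits did not move together. Eif2b3, the gamma subunit of the catalytic part (chr4:117019402-117087306, plus strand), had the largest rise of all members and stood at 21.8, 20.7, 33.3 and 24.1 CPM without and 109.7, 79.1, 90.6 and 88.00 CPM with stimulation (log2 fold change 1.89 ± 0.19 (SE), adjusted p = 1.27e-12). No stimulated library came near the unstimulated range. Its catalytic partner Eif2b5 also rose (log2 fold change 0.58 ± 0.17 (SE), adjusted p = 0.00498). Eif2b2, the beta subunit of the regulatory part, fell from 70.5, 51.8, 58.1 and 53.2 CPM to 28.9, 22.3, 37.5 and 48.3 CPM (log2 fold change -0.78 ± 0.23 (SE), adjusted p = 0.00384), with all stimulated libraries below the unstimulated ones. The regulatory subunits Eif2b1 and Eif2b4 were not called, at 0.07 ± 0.24 and -0.20 ± 0.16.

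Among the kinases of eIF2, 1 fell, 1 rose and 2 were not called. Eif2ak3, which encodes PERK, the kinase that senses stress of the endoplasmic reticulum (chr6:70844515-70905245, plus strand), stood at 24.7, 19.9, 28.6 and 20.8 CPM without and 13.7, 10.8, 12.8 and 15.6 CPM with stimulation (log2 fold change -0.82 ± 0.23 (SE), adjusted p = 0.00272). The groups did not overlap. Eif2ak4, which encodes the amino-acid sensor GCN2, rose (log2 fold change 0.73 ± 0.27 (SE), adjusted p = 0.0273), a call that was lost in 7 of 14 alternative analyses. Eif2ak1 (HRI) and Eif2ak2 (PKR) were at -0.10 ± 0.16 and -0.10 ± 0.22. Of the factors that deliver tRNA by other routes, Eif2a rose (log2 fold change 0.34 ± 0.12 (SE), adjusted p = 0.0255) and Eif2d was at -0.36 ± 0.22.

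The 14 eIF3 genes divided by subunit. In WT cells 7 rose (Eif3a, Eif3b, Eif3c, Eif3d, Eif3g, Eif3j1 and Eif3j2), 2 fell (Eif3f and Eif3h) and 5 were not called (Eif3e, Eif3i, Eif3k, Eif3l and Eif3m). Eif3a, the largest subunit (chr19:60761117-60790658, minus strand), stood at 326, 349, 393 and 304 CPM without and 1336, 1272, 974 and 702 CPM with stimulation (log2 fold change 1.64 ± 0.21 (SE), adjusted p = 4.31e-09). All stimulated libraries lay above the unstimulated ones, with replicate 4 the lowest. Eif3b had log2 fold change 1.12 ± 0.14 (SE), adjusted p = 5.9e-10, and Eif3c had log2 fold change 1.07 ± 0.11 (SE), adjusted p = 6.03e-12. On the falling side, Eif3h and Eif3f, a pair with related MPN folds, had log2 fold changes of -0.55 ± 0.22 and -0.45 ± 0.14 (adjusted p = 0.0359 and 0.00939). Eif3j1 and Eif3j2 are close copies between which reads could be split, so their separate values are uncertain.

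**Figure D3:**
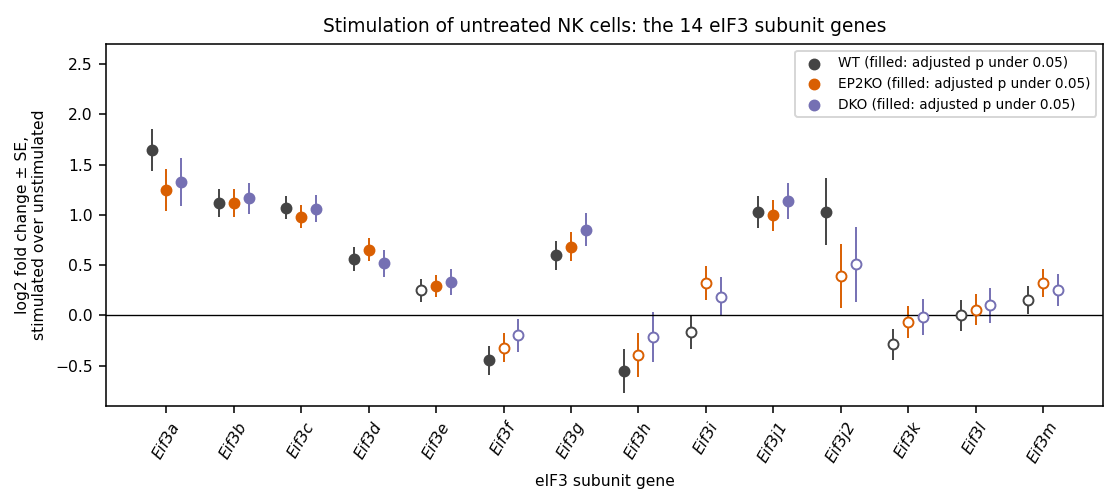
log2 fold change (± SE) of the 14 eIF3 subunit genes on stimulation of untreated WT, EP2KO and DKO cells; filled points have adjusted p under 0.05. Eif3a, Eif3b, Eif3c, Eif3d, Eif3g and Eif3j1 are above 0 and called in all 3 genotypes, and Eif3f and Eif3h are below 0 in all 3 and called in WT.

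For eIF4F and its relatives, the 3 eIF4G-type scaffold genes, the helicase genes Eif4a1 and Eif4a2 and the cap-binding gene Eif4e all rose. Eif4a1, the main eIF4A helicase (chr11:69666936-69672423, minus strand), stood at 337, 329, 323 and 385 CPM without and 584, 493, 868 and 988 CPM with stimulation (log2 fold change 1.09 ± 0.17 (SE), adjusted p = 1.61e-07). Its paralog Eif4a2 stood at 59.6, 66.99, 87.7 and 67.3 CPM and 122, 165, 112 and 113 CPM (log2 fold change 0.87 ± 0.19 (SE), adjusted p = 0.000104). Eif4e stood at 64.7, 54.2, 49.5 and 58.98 CPM and 78.5, 74.1, 122 and 167 CPM (log2 fold change 0.95 ± 0.23 (SE), adjusted p = 0.000774). None of these 3 overlapped between the groups, and replicates 3 and 4 were the higher stimulated libraries for Eif4a1 and Eif4e. For the scaffold Eif4g1, whose E-box window is shown above, the order was the opposite: 178, 180.2, 176 and 184 CPM without and 526, 539, 404 and 363 CPM with stimulation (log2 fold change 1.35 ± 0.16 (SE), adjusted p = 2.35e-10). Eif4g3 and Eif4g2, a relative without the eIF4E-binding site, had 0.92 ± 0.17 and 0.64 ± 0.12. The cofactors Eif4b and Eif4h, and Eif4a3 of the exon junction complex, were not called (0.16 ± 0.13, 0.06 ± 0.11 and 0.01 ± 0.18).

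Other cap-binding proteins and the inhibitors of eIF4E moved in both directions. Eif4e3, a cap-binding relative of eIF4E, had the largest fall, from 85.8, 70.98, 76.2 and 78.9 CPM to 31.99, 32.4, 38.4 and 55.3 CPM (log2 fold change -0.98 ± 0.17 (SE), adjusted p = 3.84e-06). Eif4ebp2, an eIF4E-binding inhibitor, fell from 95.9, 98.9, 122 and 86.4 CPM to 54.1, 61.1, 64.03 and 63.1 CPM (log2 fold change -0.73 ± 0.13 (SE), adjusted p = 5.83e-06). Every stimulated library was below every unstimulated one for both. Its relative Eif4ebp1 went from 69.8, 51.04, 53.4 and 49.8 CPM to 60.9, 40.99, 104 and 139 CPM (log2 fold change 0.61 ± 0.24 (SE), adjusted p = 0.0384), and there the groups overlapped, since stimulated replicates 1 and 2 lay within or below the unstimulated range. The call for Eif4ebp1 was lost without stimulated replicate 3 or 4, without unstimulated replicate 2, 3 or 4, and in 3 other analyses, with adjusted p up to 0.471. Eif4e2 and the eIF4E transporter Eif4enif1 rose by small amounts (0.29 ± 0.12 and 0.44 ± 0.17), calls kept in 4 and 6 of 14 alternatives. Of the remaining genes, Eif6, which keeps the large ribosomal subunit apart, stood at 147, 114, 117 and 148 CPM and 187, 164, 224 and 234 CPM (log2 fold change 0.62 ± 0.14 (SE), adjusted p = 0.000225) without overlap. Eif1ad also rose (0.57 ± 0.16), and Eif5a and Eif5a2 were not called.

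Of the 33 calls on stimulation of WT cells, 25 were kept in all 14 alternatives. The other 8 (Eif2a, Eif2ak4, Eif2b5, Eif3h, Eif3j2, Eif4e2, Eif4ebp1 and Eif4enif1) were each lost in at least 1 analysis that left out a library of either group.

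In the knockouts the stimulation response of the members had a like count. EP2KO cells had 25 members higher and 3 lower (33.3% of all genes called, 18.4% higher and 15% lower), and DKO cells 23 higher and 3 lower (30.2%, 16.4% higher and 13.8% lower). Median log2 fold changes of the members were 0.418 and 0.481. Eif2b3 had 1.51 ± 0.19 in EP2KO and 1.61 ± 0.22 in DKO, Eif1a had 1.36 ± 0.13 and 1.66 ± 0.15, and Eif2ak3 had -0.65 ± 0.23 and -0.95 ± 0.25, all called. The EP2KO libraries of Eif2ak3 overlapped, and its call there was lost in 4 of 14 alternatives (no filter, DESeq2, without unstimulated replicate 2 and without stimulated replicate 1, adjusted p up to 0.102). In EP2KO 18 of 28 calls were kept in all 14 alternatives and in DKO 19 of 26 in all 12. With the replicate block, which pairs the DKO libraries, Eif1, Eif2ak2, Eif2b2, Eif2b5 and Eif5a were called in DKO besides. Tested directly, the stimulation effect of 0 members differed between EP2KO and WT or between DKO and EP2KO (edgeR), with 0% of all genes called, 2 and 0 members at an unadjusted p under 0.05, and 0 by DESeq2. With scaling by library totals in place of TMM, the median over all genes moved by -0.129, -0.152 and -0.166 in WT, EP2KO and DKO. The members called higher and lower became 22 and 8, 19 and 5, and 18 and 7. The share of all genes called was not counted with that scaling, so these counts are not read as a change of the members.

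Genes that work with the initiation factors were counted from 4 lists, which were drawn up with earlier results known. Beside their counts stand the 23% of all genes called higher and 19.1% called lower on stimulation of WT cells. Of 11 tested genes of the integrated stress response, the programme that follows eIF2 phosphorylation, 10 rose on stimulation of WT cells and 0 fell. Atf4, its central transcription factor, had log2 fold change 1.52 ± 0.11 (SE), adjusted p = 8.22e-18, and Atf3 had log2 fold change 3.34 ± 0.33 (SE), adjusted p = 2.1e-12. Of 17 initiation partners outside the family, 9 rose and 3 fell, among them Larp1, which binds mRNAs of the translation machinery (1.58 ± 0.16), and Pdcd4, an inhibitor of eIF4A (-1.27 ± 0.13). Of 15 elongation, termination and recycling factors, 5 rose and 1 fell, with the recycling factor Abce1 at 1.56 ± 0.14 and the release factor Etf1 at 1.35 ± 0.12. Of 25 genes of the mTORC1 pathway, 3 rose and 11 fell, with Lamtor4, part of the lysosomal anchor of mTORC1, at -1.21 ± 0.15 and the kinase Rps6kb1 at 1.08 ± 0.16. List medians were 1.126, 0.383, 0.199 and -0.295, in that order, against 0.009 over all genes.

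The treatments ask how PGE2, or tumour-cell medium containing it, bears on the activated state. In stimulated WT cells PGE2 lowered 15 of the 50 members and raised 2. CM lowered 14 and raised 1. Of all genes, 15.6% were called for PGE2 (9.63% lower, 6% higher) and 15.4% for CM (9.22% lower, 6.2% higher). Median log2 fold changes of the members were -0.324 and -0.328, against -0.052 and -0.041 over all genes. Totals of the PGE2 libraries (1037473 to 1156732 counts) lay below those of the untreated ones (1231401 to 1465590), and CM totals (1148397 to 1355427) overlapped these. Mitochondrial counts had mean shares of 8.665% untreated, 9.68% with PGE2 and 8.93% with CM, with overlapping ranges. The part of these in the results was not tested. The 2 comparisons share the untreated stimulated libraries, and stimulation shares them too, so their values are set side by side and not correlated. Tested directly, CM and PGE2 differed for 0 members in stimulated or unstimulated WT cells (edgeR), with 0 at an unadjusted p under 0.05 in either state and 0 by DESeq2, and 0.00933% and 0% of all genes called.

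Eif2b3 had the largest fall under both treatments. Against 109.7, 79.1, 90.6 and 88.00 CPM in untreated stimulated WT libraries, it stood at 58.3, 44.03, 37.00 and 41.3 CPM with PGE2 (log2 fold change -1.02 ± 0.18 (SE), adjusted p = 1.31e-05). With CM it stood at 48.7, 47.1, 56.4 and 33.3 CPM (log2 fold change -0.98 ± 0.18 (SE), adjusted p = 2.58e-05). All treated libraries were below all untreated ones, and all but 1 were above every unstimulated untreated library. The exception was CM replicate 4, level with the highest of these.

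Both eIF2 subunits also fell. Eif2s2 was 702, 657, 617 and 702 CPM with PGE2 and 671, 768, 693 and 794 CPM with CM (log2 fold changes -0.74 ± 0.11 and -0.62 ± 0.11, adjusted p = 5.8e-07 and 2.86e-05). Eif2s1 was 179, 139.6, 169 and 191 CPM and 178, 136, 168 and 241 CPM (-0.69 ± 0.17 and -0.61 ± 0.17, adjusted p = 0.00206 and 0.00787). Treated Eif2s2 libraries lay below all untreated stimulated ones, whereas for Eif2s1 CM replicate 4 lay within their range. The CM call for Eif2s1 was lost without untreated replicate 4, without CM replicate 2 and with the compared groups alone (adjusted p up to 0.108 over these 3). The scanning factor Eif1a was 185, 171, 199 and 193 CPM with PGE2 and 161, 164, 171 and 179 CPM with CM (-0.61 ± 0.13 and -0.76 ± 0.13, adjusted p = 0.000195 and 5.48e-06), again without overlap. Eif5 and Eif5b fell under both treatments, and Eif1 was at -0.54 ± 0.21 and -0.48 ± 0.21, not called. With the replicate block Eif1 was called for both treatments.

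In eIF4F, Eif4a1 fell to 368, 395, 483 and 458 CPM with PGE2 and 441, 366, 443 and 591 CPM with CM (-0.78 ± 0.16 and -0.67 ± 0.16, adjusted p = 0.000264 and 0.002). With PGE2 the groups did not overlap, and with CM replicate 4 lay above the 2 lowest untreated libraries. The CM call was lost without untreated stimulated replicate 4 and with the compared groups alone (adjusted p up to 0.104). Eif4e was at 68.6, 50.7, 88.6 and 91.4 CPM and 72.4, 56.1, 73.1 and 101 CPM (-0.56 ± 0.23 and -0.55 ± 0.23), not called, and its libraries overlapped the untreated ones. Eif4a2 was at 94.3, 117, 81.8 and 94.1 CPM and 85.99, 118, 96.9 and 83.8 CPM (-0.40 ± 0.18 and -0.42 ± 0.18), also not called. With the replicate block Eif4e and Eif4a2 were called for both treatments. Eif4g2, the scaffold relative without the eIF4E-binding site, fell under both treatments (-0.43 ± 0.12 and -0.50 ± 0.12). Eif4g1 was called for PGE2 (-0.43 ± 0.16), in only 4 of 14 alternatives besides. Eif6 fell to 134, 132, 119.8 and 139.8 CPM and 125, 168, 122 and 141 CPM (-0.62 ± 0.14 and -0.54 ± 0.14), and only with CM did 1 library reach the untreated range.

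Of the inhibitors, Eif4ebp1 was 33.4, 49.02, 59.4 and 51.9 CPM with PGE2 (log2 fold change -0.83 ± 0.25 (SE), adjusted p = 0.0145) and 63.1, 51.2, 62.8 and 79.3 CPM with CM (log2 fold change -0.42 ± 0.24 (SE), adjusted p = 0.257), overlapping the untreated range in both. The PGE2 call was lost without untreated replicate 3 or 4, without PGE2 replicate 1 and with the compared groups alone (adjusted p up to 0.26). Eif4ebp2 was 69.4, 95.5, 65.2 and 65.9 CPM and 63.1, 68.2, 85.02 and 85.6 CPM (0.29 ± 0.13 and 0.31 ± 0.13), not called. Eif4e3 rose with PGE2, at 49.7, 50.7, 56.5 and 65.9 CPM (log2 fold change 0.50 ± 0.18 (SE), adjusted p = 0.0477), and was 58.8, 34.9, 58.01 and 59.5 CPM with CM (log2 fold change 0.42 ± 0.18 (SE), adjusted p = 0.103). That PGE2 call was lost in 7 of 14 alternatives, among them those without untreated replicate 1, 2 or 3 or PGE2 replicate 3 or 4.

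Eif2ak3 was the member with the largest rise under either treatment. Against 13.7, 10.8, 12.8 and 15.6 CPM in untreated stimulated libraries, it stood at 17.1, 22.4, 22.4 and 34.3 CPM with PGE2 (log2 fold change 0.86 ± 0.23 (SE), adjusted p = 0.00488) and at 32.2, 21.1, 27.02 and 24.3 CPM with CM (log2 fold change 0.99 ± 0.22 (SE), adjusted p = 0.000918). No treated library overlapped the untreated ones. The PGE2 call was lost without PGE2 replicate 4 (adjusted p = 0.0582), and the CM call was kept in all 14 alternatives. Eif2b2, the regulatory subunit that fell on stimulation, was 23.1, 25.8, 37.97 and 43.1 CPM and 40.8, 34.1, 32.6 and 50.5 CPM, and neither value was called (-0.07 ± 0.24 and 0.21 ± 0.23).

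Of the eIF3 genes, PGE2 lowered 4 of 14 (Eif3a, Eif3b, Eif3c and Eif3g) and CM 5 (Eif3a, Eif3b, Eif3c, Eif3e and Eif3j1), and none rose. Eif3a was 916, 707, 535 and 604 CPM with PGE2 and 705, 829.5, 700.0 and 453 CPM with CM (-0.63 ± 0.21 and -0.67 ± 0.21, adjusted p = 0.0254 and 0.0175), and the treated libraries overlapped the untreated ones. Its calls were kept in 6 and 8 of 14 alternatives and lost without untreated replicate 1 or 2, without PGE2 replicate 2, 3 or 4 or CM replicate 4 in turn, and with library totals, no filter or the compared groups alone. The effect on Eif3c differed between the states: it was -0.55 ± 0.11 with PGE2 and -0.46 ± 0.11 with CM in stimulated WT cells, both called, and 0.10 ± 0.14 and 0.16 ± 0.11 in unstimulated ones, neither called. The difference of its effects was -0.66 ± 0.18 for PGE2 (adjusted p = 0.0406, 1.31% of all genes called) and -0.62 ± 0.16 for CM (adjusted p = 0.0221, 2.19% called). For CM the difference was also called for Eif2s2 (-0.55 ± 0.16, adjusted p = 0.04995). These 3 calls were kept in 6 of 20, 15 of 22 and 5 of 22 alternatives, and all 3 were lost without untreated stimulated replicate 3. Scaling by library totals moved the all-gene medians of these differences by 0.155 and 0.157 and left 0 calls.

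The size of the treated counts depended on the fit. Fitted on the compared groups alone, 7 members were called for PGE2 (1 higher, 6 lower) and 4 for CM (1 higher, 3 lower). Replicate numbers pair the PGE2 and untreated stimulated WT libraries by their correlated deviations, and with the replicate block 26 members were called for PGE2 (2 higher, 24 lower). The paired fit thus called Eif1, Eif4a2 and Eif4e lower, which the fit without the block did not, and likewise Eif1ad, Eif2b1, Eif3e, Eif4a3, Eif4e2 and Eif5a. The share of all genes called was not counted for the block, for the compared groups alone or for scaling by library totals. Calls kept in all 14 alternatives were 6 for PGE2 (Eif1a, Eif2b3, Eif2s1, Eif2s2, Eif4a1 and Eif6, all lower) and 4 for CM (Eif1a, Eif2b3 and Eif2s2 lower, Eif2ak3 higher). Without PGE2 replicate 4, 11 members were called for PGE2. With scaling by library totals the all-gene median moved by 0.127 and 0.117, and higher and lower calls became 3 and 9 for PGE2 and 4 and 9 for CM.

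**Figure D4:**
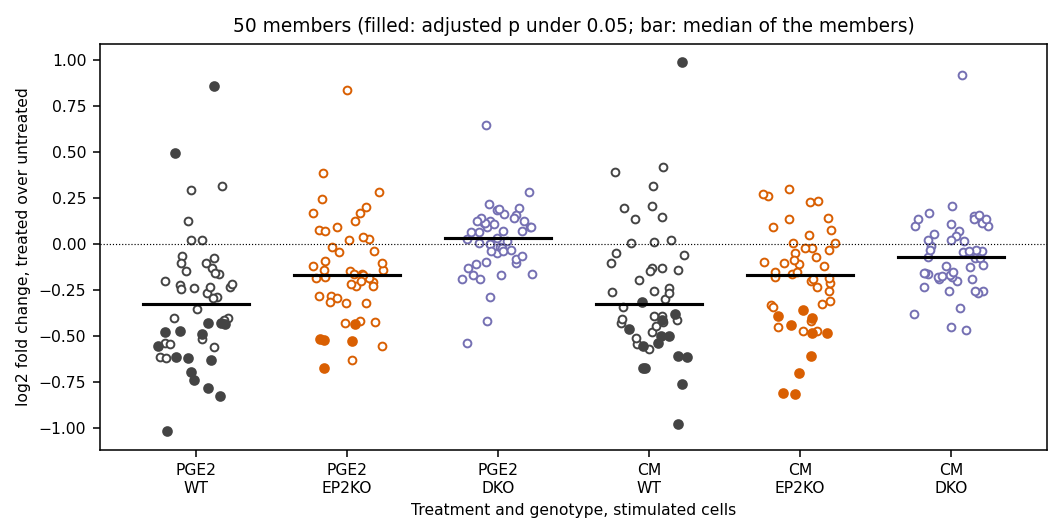
log2 fold change, treated over untreated, of each of the 50 members in stimulated WT, EP2KO and DKO cells, with bars at the median and filled points at adjusted p under 0.05. Medians are -0.324, -0.167 and 0.031 for PGE2 and -0.328, -0.17 and -0.073 for CM, and no DKO point is filled.

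The knockouts ask which receptors the treatments need. In stimulated EP2KO cells PGE2 lowered 5 members (Eif1a, Eif2b3, Eif2s2, Eif3c and Eif3j1) and CM 10, and none rose, with 7.29% of all genes called for PGE2 (3.39% higher, 3.9% lower) and 10.4% for CM (4.5% higher, 5.91% lower). In stimulated DKO cells 0 members were called for either treatment by edgeR or DESeq2, with 0% and 0.0746% of all genes called. At an unadjusted p under 0.05 in edgeR's test there were 0 and 4 members. The share of all genes at that unadjusted limit was not counted, so no effect or lack of effect is read from these counts. Median log2 fold changes of the members were -0.167 and -0.17 in EP2KO and 0.031 and -0.073 in DKO. DKO groups had 3 libraries rather than 4, so their standard errors are wider.

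The EP2KO counts moved with single libraries. The PGE2 count was 3 without untreated stimulated replicate 3 and 9 without untreated stimulated replicate 4. The CM count was 4 without CM replicate 4 or untreated replicate 1, 5 without untreated replicate 3, and 6 without CM replicate 2 or 3 or untreated replicate 2. It was also 4 with scaling by library totals, which moved the all-gene median by 0.11. With that scaling PGE2 calls in stimulated EP2KO cells were 1 higher and 4 lower.

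Eif2b3 shows the series of genotypes. In EP2KO it was 90.9, 93.4, 110.0 and 56.7 CPM untreated and 52.05, 59.5, 58.2 and 49.4 CPM with PGE2 (log2 fold change -0.67 ± 0.17 (SE), adjusted p = 0.00698). In DKO it was 66.4, 82.5 and 85.00 CPM untreated and 97.1, 81.3 and 93.8 CPM with PGE2 (log2 fold change 0.22 ± 0.19 (SE), adjusted p = 1). PGE2-treated EP2KO libraries overlapped the untreated ones through untreated replicate 4 alone, and the DKO groups overlapped as well. Without EP2KO untreated replicate 3 the EP2KO call was lost (adjusted p = 0.0832). With CM it was -0.48 ± 0.17 in EP2KO and -0.27 ± 0.20 in DKO, neither called.

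Eif2s2 fell in EP2KO under both treatments. It was 1277, 1145, 1337 and 916 CPM untreated, 879.8, 848, 762 and 751 CPM with PGE2 and 739, 789, 719.6 and 822 CPM with CM (-0.53 ± 0.11 and -0.61 ± 0.11, adjusted p = 0.000634 and 5.64e-05), without overlap. In DKO it was 1131, 1134 and 1054 CPM untreated and 971, 1018 and 1093 CPM with PGE2 (-0.11 ± 0.13), with overlap. With CM it was 900.1, 1012 and 1048 CPM (-0.17 ± 0.13, adjusted p = 0.923), below every untreated DKO library though not called. Eif1a, Eif3c, Eif3j1, Eif4e2 and Eif5 also had all CM libraries below all untreated ones in DKO, and Eif5a2 all above. With 3 libraries a side such separation is weak evidence. Its share over all genes was not counted, so no CM effect in DKO is read from it. Eif2ak3, the member that rose in treated WT cells, was 10.03, 15.1, 14.73 and 17.1 CPM untreated, 16.6, 17.6, 20.2 and 14.5 CPM with PGE2 and 11.97, 19.3, 16.8 and 12.7 CPM with CM in EP2KO (0.28 ± 0.23 and 0.09 ± 0.24), and neither value was called.

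Direct tests of the difference between genotypes called 0 members. The PGE2 effect in stimulated cells differed between EP2KO and WT for 0 members (edgeR, 0% of all genes called, 2 members at an unadjusted p under 0.05, 0 by DESeq2). Between DKO and EP2KO it differed for 0 members (0.951% called, 0.466% higher and 0.485% lower, 3 at an unadjusted p under 0.05), while DESeq2 called 1, and so did the fit with the replicate block and that without untreated stimulated EP2KO replicate 4. For Eif2b3 the difference between DKO and EP2KO was 0.89 ± 0.26 (adjusted p = 0.0868), and for Eif2s2 0.42 ± 0.17 (adjusted p = 0.36). The CM effect differed for 0 members in both contrasts (0% and 0.345% of all genes called, 4 and 3 members at an unadjusted p under 0.05, 0 by DESeq2). For Eif2ak3 the CM effect in EP2KO minus that in WT was -0.90 ± 0.33 (adjusted p = 1). The lower counts in EP2KO than in WT are therefore not shown to differ.

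**Figure D5:**
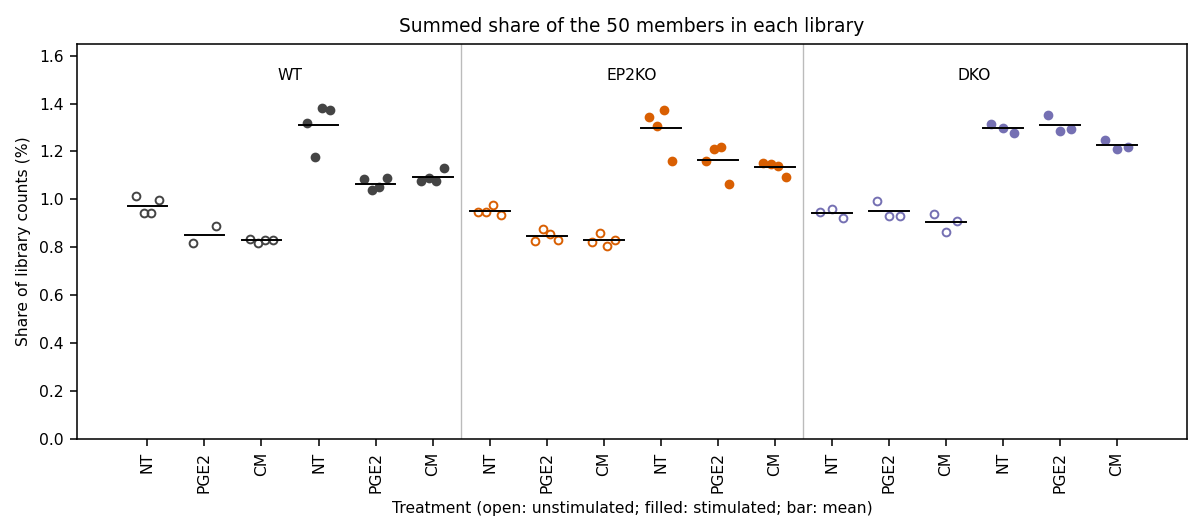
Summed share of library counts in the 50 members, for every library of the 18 groups, with bars at group means. Stimulated libraries lie at 1.04% to 1.38% and unstimulated ones at 0.804% to 1.01%, and treated stimulated WT libraries all lie below the untreated ones.

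The members' summed share of counts followed the groups as a whole. In stimulated WT cells it was 1.312% ± 0.094 untreated, 1.066% ± 0.0249 with PGE2 and 1.093% ± 0.0266 with CM (SD, n = 4 each). In stimulated DKO cells it was 1.297% ± 0.019, 1.31% ± 0.0358 and 1.226% ± 0.0182 (SD, n = 3 each). These shares are given without a test, since they sum over members with large and small counts.

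The 4 lists of related genes moved as follows under PGE2 and CM in stimulated WT cells, beside 9.63% and 9.22% of all genes called lower and 6% and 6.2% called higher. Of the 11 integrated stress response genes, 6 fell under each treatment and 0 rose, with Atf4 at -0.87 ± 0.11 and -0.73 ± 0.11 and Atf3 at -1.24 ± 0.27 and -1.15 ± 0.26. Of 17 initiation partners, 2 rose and 6 fell with PGE2 and 2 rose and 5 fell with CM. Larp1 was at -0.72 ± 0.15 and -0.79 ± 0.15, and Pdcd4 at 0.43 ± 0.13 and 0.72 ± 0.13, all called. Of 15 elongation, termination and recycling factors, 5 fell and 0 rose under each, with Etf1 at -0.81 ± 0.12 and -0.58 ± 0.12. Of 25 mTORC1 pathway genes, 2 rose and 1 fell with PGE2 and 3 rose and 2 fell with CM. In stimulated DKO cells 0 genes of the 4 lists were called under either treatment.

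In unstimulated cells few members changed. PGE2 lowered Eif1b and raised Eif2ak3 in WT (2.97% of all genes called, 1.91% higher and 1.05% lower), a group with 2 treated libraries. CM lowered Eif4a1, Eif6 and Eif1a and raised Eif2ak3 (8.23%, 4.55% higher and 3.68% lower). The PGE2 count was 0 without untreated replicate 1, 2 or 4 or either PGE2 library, and the CM count was 2 without untreated replicate 4 or CM replicate 1 and 14 when the compared groups were fitted alone. With scaling by library totals the calls were 0 higher and 2 lower for PGE2 and 0 higher and 7 lower for CM. Eif4a1 stood at 170.3, 175, 224 and 192 CPM with CM, below all untreated libraries at 337, 329, 323 and 385 CPM (log2 fold change -0.85 ± 0.17 (SE), adjusted p = 0.000365), a call kept in all 14 alternatives. With PGE2 it was 196 and 249 CPM (log2 fold change -0.63 ± 0.21 (SE), adjusted p = 0.0946). The unstimulated WT libraries also differed in the share of mitochondrial counts, with a mean of 8.92% untreated, 10.8% with PGE2 and 11.1% with CM, and in NK cell markers, which summed to 1.08% to 1.24% untreated, 0.783% to 0.961% with PGE2 and 0.748% to 0.914% with CM. B cell markers summed to 0.00682% to 0.00945%, 0.00324% to 0.00457% and 0.00392% to 0.00546%, and T cell markers to 0.00525% to 0.00692%, 0.00358% to 0.00457% and 0.00243% to 0.00414%. Totals of the CM libraries (765903 to 1013588 counts) lay below those of the untreated ones (1026568 to 1352953). The part of these in the results was not tested.

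Eif2ak3 was 45.8 and 35.6 CPM with PGE2 (log2 fold change 0.80 ± 0.24 (SE), adjusted p = 0.0499) and 40.9, 36.9, 38.3 and 29.9 CPM with CM (log2 fold change 0.64 ± 0.21 (SE), adjusted p = 0.0424), above every untreated library at 24.7, 19.9, 28.6 and 20.8 CPM. These 2 calls were kept in 2 of 12 and 5 of 14 alternatives. Eif6 was 103, 80.96, 86.2 and 86.7 CPM with CM (log2 fold change -0.56 ± 0.15 (SE), adjusted p = 0.0107) and Eif1a 71.1, 75.8, 79.4 and 71.2 CPM (log2 fold change -0.47 ± 0.14 (SE), adjusted p = 0.0269), both below every untreated library. The Eif6 call was lost without untreated replicate 4 (adjusted p = 0.0507), and that of Eif1a without untreated replicate 2 or CM replicate 1 or 4 and with no filter (adjusted p up to 0.114). Eif1b, the paralog of Eif1, was 40.6 and 48.7 CPM with PGE2 against 80.7, 90.9, 56.2 and 84.7 CPM untreated (log2 fold change -0.81 ± 0.24 (SE), adjusted p = 0.0442), a call kept in 6 of 12 alternatives.

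In unstimulated EP2KO cells PGE2 lowered 1 member, Eif2b3, and CM lowered 3, Eif1a, Eif2s1 and Eif4a1 (3.15% of all genes called for PGE2, 1.75% higher and 1.4% lower, and 4.37% for CM, 2.23% higher and 2.14% lower). Eif2b3 was 38.1, 27.4, 31.3 and 25.8 CPM untreated and 17.6, 22.5, 15.3 and 15.3 CPM with PGE2 (log2 fold change -0.79 ± 0.22 (SE), adjusted p = 0.0332). The treated libraries lay below all untreated ones. This call was lost without untreated replicate 1 or 3 or PGE2 replicate 1, 3 or 4 and with no filter (adjusted p up to 0.172), while with the replicate block, which by the libraries' deviations pairs these groups, 4 members were called lower (Eif1a, Eif2b3, Eif2s1 and Eif4a1). Eif1a was 123, 111, 115 and 134 CPM untreated and 67.2, 77.2, 62.5 and 74.4 CPM with CM (log2 fold change -0.77 ± 0.14 (SE), adjusted p = 0.000113), kept in all 14 alternatives. The CM calls for Eif2s1 and Eif4a1 were both lost without CM replicate 1, 2, 3 or 4 or untreated replicate 1, 2 or 3. Without CM replicate 1, 2 or 4 or untreated replicate 1, 2 or 3, this left 1 called member. The CM call for Eif4a1 was also lost without untreated replicate 4. In unstimulated DKO cells 0 members were called for PGE2 or CM by edgeR or DESeq2 (0% of all genes called, 0 and 1 members at an unadjusted p under 0.05).

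Without treatment or stimulation the genotypes differed in 0 members (edgeR and DESeq2), with 0.0653% of all genes called between EP2KO and WT and 0.056% between DKO and EP2KO. At an unadjusted p under 0.05 there were 3 members in each contrast.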

How the data were processed

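Bulk 3′ mRNA sequencing with unique molecular identifiers measured gene expression in 64 libraries of cultured NK cells. The deposited table holds raw counts per gene symbol, made by the authors. The submitters' processing notes name the builds GRCm38 and mm10 and DESeq2. The sources used here name no aligner, counter or annotation, and the use of strand and collapse of identifiers were not given in the sources used here either.

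Members and gene lists were chosen with earlier results of these data known. CPM are counts scaled by edgeR's TMM library sizes, except for the membership limit, which uses library totals (with TMM the same 50 genes were members). Genes were filtered with filterByExpr (minimum count 10), leaving 10723 genes with 99.21% of counts. Each comparison is a contrast in 1 quasi-likelihood fit over all 64 libraries with 1 mean per group (edgeR 4.0.16, limma 3.58.1, R 4.3.3), adjusted by Benjamini-Hochberg, and the script was tested on simulated data. SE is the log2 fold change divided by the root of its F statistic. Promoter and gene positions come from RefSeq GRCm38.p6 and GENCODE on GRCm38.

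Alternatives were DESeq2's size factors, library totals, DESeq2 1.42.0, no filter, the compared groups alone, a replicate block within genotype, and each library left out in turn. The share of all genes called was not counted for the alternatives, nor the share at an unadjusted p under 0.05 for any comparison. Same-numbered libraries deviated together (every correlation over 0.1, at least 3 pairs) for PGE2 in stimulated WT (0.223 to 0.366), PGE2 in unstimulated EP2KO (0.101 to 0.336), stimulation in DKO (0.166 to 0.22) and PGE2 in both states and CM in stimulated DKO. No pair of replicates agreed within counting noise (lowest chi-square per degree of freedom 1.46). Values in every library are given for the 4 largest rises and falls on stimulation of WT cells, the 2 largest each way under PGE2 and CM in stimulated and CM in unstimulated WT cells, and Eif4a1, Eif4a2, Eif4ebp1, Eif4ebp2, Eif2ak3, Eif4e, Eif1 and Eif2s1. Other members outside this rule with values in every library (Eif4g1, Eif1b and Eif5a) were chosen after their values were seen.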

Additional observations from a re-analysis of the deposited data

Results flagged for a closer look

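In 86 groups of 4 libraries examined (15 members in WT groups, and the members' summed share in WT and EP2KO groups), 3 held a library far from the other 3. Chance gives about 1 in 20 such groups. Eif4e3 in stimulated WT cells with CM had 1 low library, replicate 2, at 34.9 CPM, with the other 3 between 58.0 and 59.5 CPM. Eif4ebp2 in stimulated WT cells with PGE2 had 1 high library, replicate 2, at 95.5 CPM. Eif2s1 in unstimulated WT cells with CM had 1 high library, replicate 2, at 111 CPM.

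The effect of a treatment differed between stimulated and unstimulated WT cells for 2 members. For Eif3c the difference of log2 effects was -0.66 ± 0.18 (SE) with PGE2 (adjusted p = 0.0406, edgeR). It was -0.62 ± 0.16 with CM (adjusted p = 0.0221). For Eif2s2 it was -0.55 ± 0.16 with CM (adjusted p = 0.04995). These 3 calls were kept in 6 of 20, 15 of 22 and 5 of 22 alternatives. All 3 were lost without untreated stimulated replicate 3, and with library totals, with no filter and with the compared groups alone.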

How the results depend on the processing

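No member called in any of the 27 comparisons changed direction under any alternative. Stimulation calls stayed within 1.5 times their count in all alternatives run, with 28 to 36 calls for WT, 21 to 33 for EP2KO and 22 to 31 for DKO. Other counts moved. For the compared groups alone, calls were 7 (PGE2) and 4 (CM) in stimulated WT, 14 for CM in unstimulated WT, 2 (PGE2) and 6 (CM) in unstimulated EP2KO, 3 for PGE2 in stimulated EP2KO, and 0 for both differences between stimulated and unstimulated effects. Library totals gave 7 for CM in unstimulated WT, 2 for PGE2 in unstimulated EP2KO, 4 for CM in stimulated EP2KO and 0 for both differences. Without a filter, calls were 0 for PGE2 in unstimulated WT and EP2KO and for both differences, and 3 (PGE2) and 5 (CM) in stimulated EP2KO. DESeq2's size factors gave 1 for PGE2 in unstimulated WT and 1 for the CM difference. DESeq2's test gave 1 for PGE2 in unstimulated WT, 2 in unstimulated EP2KO, 1 for DKO minus EP2KO and 3 for the PGE2 difference.

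With the replicate block, pairing libraries by number within genotype, calls were 26 for PGE2 and 26 for CM in stimulated WT, 5 and 12 in unstimulated WT, 11 and 16 in stimulated EP2KO, 4 and 6 in unstimulated EP2KO, 1 for the PGE2 effect in DKO minus EP2KO, and 4 for each difference between states. Of these, only PGE2 in stimulated WT and in unstimulated EP2KO cells had every same-numbered pair of at least 3 deviating together. The others did not meet this rule in full, which does not show that they are unpaired. In each WT and EP2KO comparison of a treatment, the untreated library of most correlated deviation had the same number for 3 of 4 treated libraries. PGE2 in unstimulated WT, with 1 of 2, was the exception. Correlations ran from -0.006 to 0.441 for CM in stimulated WT and from 0.054 to 0.383 for CM in stimulated EP2KO. PGE2 in unstimulated WT had 2 pairs, at 0.251 and 0.293. Differences of effects were not examined in this way. The block moved no other count by over 1.5 times.

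Over the fits leaving out 1 library each, calls ran from 11 to 18 (PGE2) and 12 to 19 (CM) in stimulated WT, 0 to 2 and 2 to 4 in unstimulated WT, 3 to 9 and 4 to 14 in stimulated EP2KO, 0 to 1 and 1 to 2 in unstimulated EP2KO, 0 to 1 for the PGE2 effect in DKO minus EP2KO, and 0 to 1 and 0 to 2 for the differences between states. Where 1 unstimulated WT library with PGE2 remained, it was assumed to vary like the other groups. The causes were not tested. Depth limits the lowest members: Eif5a2, with a mean of 6.25 CPM, had 3 to 13 counts in each WT library. Among called members, Eif2ak3 averaged 13.2 CPM in untreated stimulated WT libraries and Eif2ak4 12.1 CPM in untreated unstimulated ones. Their calls thus also rest on few counts.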

Other observations

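Eif5a, the hypusine-bearing factor that helps ribosomes over difficult stretches, was the member with the highest mean, and its calls depended on the fit. In the 15 comparisons within a genotype it was not called by edgeR's test over all libraries. The replicate block called it for PGE2 and CM in stimulated WT, CM in unstimulated WT, and stimulation in EP2KO and DKO. The compared groups alone called it for CM in unstimulated WT and EP2KO and for stimulation in EP2KO and DKO, and library totals and DESeq2 for CM in unstimulated WT. In WT cells without treatment it stood at 850, 617, 624 and 864 CPM unstimulated and at 699, 495, 1219 and 1522 CPM stimulated, replicates 1 to 4. Stimulated replicates 3 and 4 lay above every unstimulated library and replicate 2 below every one, as for Eif1. With PGE2 the stimulated libraries held 499.7, 547, 753 and 763 CPM. Its log2 fold changes were 0.41 ± 0.24 (SE) for stimulation and -0.62 ± 0.24 for PGE2 in stimulated WT cells.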
